A study of Sus scrofa with 31 samples.

Results

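Microglia sorted from the cerebellum were compared with microglia sorted from the hippocampus of young pigs. The 2 groups hold 16 of the 31 samples of the series, with 8 samples each, and were taken by the region and cell type in the sample labels. They came from 12 pigs, of which 4 gave both regions, 4 gave only the cerebellum and 4 gave only the hippocampus. The pigs were uncastrated male piglets in the fourth week of life, crosses of Large White × Landrace sows with pooled Duroc semen, taken 1 from a litter. They were reared either in standard commercial housing or in pens with more room for behaviour, which the labels do not give by pig, and were sedated and anaesthetised for imaging before tissue was taken. Sex, age, cross and sedation were shared by both groups. The housing of each group's pigs and the time and order of handling cannot be told from the sources used here. Cells were freed with a Dounce homogeniser on ice, passed over Percoll and sorted, in the terms of the labels, as CD11b-high and CD45-low or negative, and each sample is the bulk RNA of such a sort. Samples are separate pigs within a group, so p-values measure the spread between pigs. Frontal cortex microglia (8 samples), whole hippocampal tissue (4 samples) and alveolar macrophages (3 samples) are used only to place a value, and some of them came from the same pigs.

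Microglia are the resident macrophages of the brain parenchyma. They live on signals through the CSF1 receptor, clear debris and synapses through complement and phagocytic receptors, and digest what they take up in lysosomes filled with cathepsins and other acid hydrolases. Transcription of many lysosomal genes is under factors of the MiT/TFE family, among them MITF and TFEB, which bind the E-box sequence CACGTG. The cerebellum is dominated by granule neurons, which are far more densely packed than the neurons of the hippocampus.

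Gene counts summed to 18438494 to 30029326 in the cerebellar samples and to 23104791 to 36503520 in the hippocampal samples. Levels are given as CPM, a gene's TMM-normalised count scaled to a fixed library total, on which 3 counts are 0.0822 to 0.163 CPM. No pair of samples within a group agreed within sampling noise. The 10 microglia markers examined, among them P2RY12, TMEM119 and CX3CR1, summed to 4360 to 8390 CPM in cerebellar and 4840 to 6570 CPM in hippocampal microglia, against 335 to 469 CPM in whole tissue and 299 to 581 CPM in alveolar macrophages. The cells therefore carried the markers of their label in every sample. Tissue genes, defined as over 10 CPM in all tissue samples and over 4 times higher on average in hippocampal tissue than in frontal cortex microglia (CPM without TMM factors), took 1.14% to 3.90% of the counts of cerebellar and 0.942% to 2.01% of those of hippocampal samples, against 24.0% to 25.6% in tissue. In bulk samples, a different share of cells of a type and a different amount of RNA per cell cannot be told apart.

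Of 31907 genes, 7875 exceeded 10 CPM in each sample of 1 or both groups and were tested with edgeR's quasi-likelihood test on counts scaled by TMM (trimmed mean of M values), with no term for the pig. At a Benjamini-Hochberg adjusted p under 0.01, 40 genes (0.508% of those tested) were higher in cerebellar and 16 genes (0.203%) were higher in hippocampal microglia, which is 56 genes or 0.711% in all. An adjusted p under 0.05 was reached by 199 genes (2.53%). Fold changes of the 40 genes ran from 1.31 to 28.9 with a median of 1.94, and those of the 16 genes from 1.34 to 3.21 with a median of 1.61, while the median size of change over all tested genes was 1.10-fold. All 40 genes were higher in the cerebellum of each of the 4 pigs with both samples, and 13 of the 16 were higher in the hippocampus of each. In pigs that gave 1 region only, the 40 and the 16 genes all kept their sign. The genes were called on these same samples, so neither agreement is independent evidence of direction. Tested alone, the pigs with 1 region gave 1 gene higher in the cerebellum, which was among the 40. They gave 3 higher in the hippocampus, none of which was among the 16. The 8 cerebellar samples lay wholly above the 8 hippocampal samples for 25 of the 40 genes, and wholly below them for 8 of the 16. Over all tested genes this separation was seen for 0.406% upward and 0.203% downward.

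**Figure D1:**
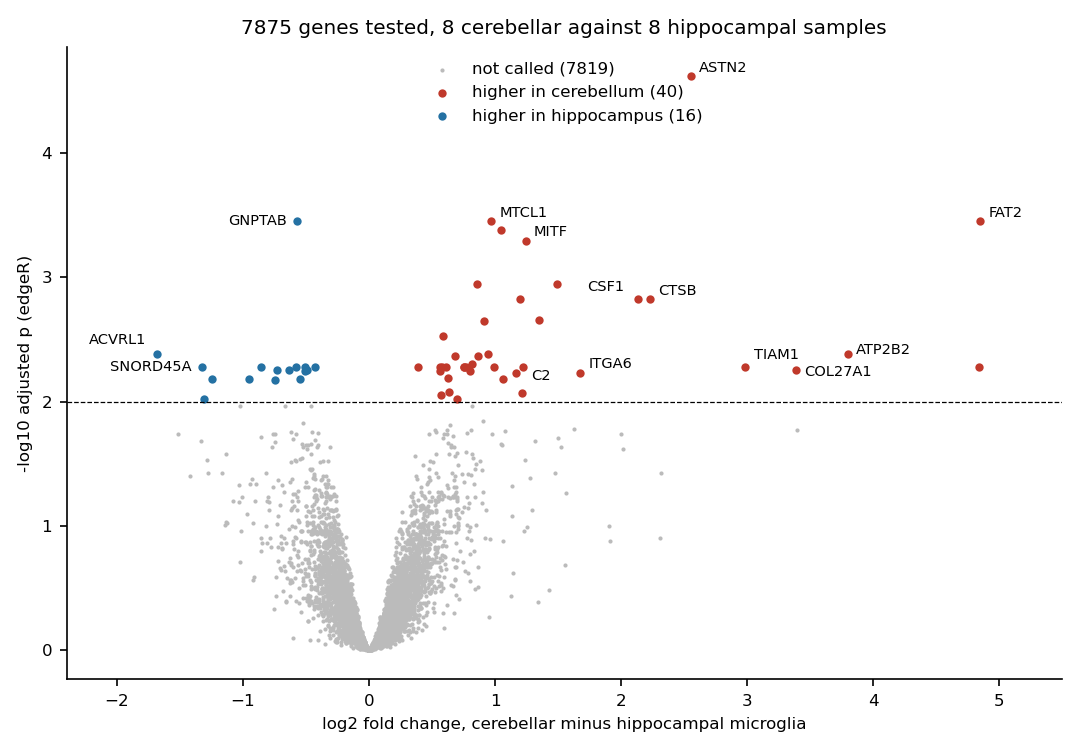
Each point is 1 of the 7875 tested genes, with the log2 fold change of cerebellar minus hippocampal microglia on the x axis and -log10 of the edgeR adjusted p on the y axis; the dashed line marks an adjusted p of 0.01. The 40 genes in red lie above the line on the right and reach 28.9-fold at FAT2, and the 16 genes in blue lie on the left and reach 3.21-fold at ACVRL1.

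The number of calls depended on single samples and on how pig was treated. With pig as a block, which leaves the 4 pigs with both regions to carry the comparison, 2 genes were higher in the cerebellum and 1 in the hippocampus at the same threshold, of which ASTN2 was also among the 40, while with pig as a random effect in limma-voom the counts were 71 and 34. Without the cerebellar sample of pig 12583 they were 17 and 3, without that of pig 12821 22 and 2, without that of pig 12599 29 and 9, and without that of pig 12891 32 and 5. Leaving out 1 hippocampal sample gave 16 and 2 without pig 12817, 19 and 4 without pig 12872, 23 and 4 without pig 12821, 23 and 6 without pig 12847 and 25 and 4 without pig 12829. The cerebellar samples of pigs 12599 and 12902 lay farthest out on the second principal component, and without both the counts were 22 and 7. In all 16 fits that each left out 1 sample, 13 of the 40 genes and 2 of the 16 passed, and the number of such fits that a gene passed is given for each main gene as "of 16". Of the 13, those with a symbol were ASTN2, B3GNT3, BTG1, CSF1, CTSB, FAT2, FMNL2, GGT7, MITF, MMP15 and MTCL1, and the 2 were ACVRL1 and GNPTAB.

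Lysosomal genes were higher in cerebellar microglia. Of 42 genes on a list of lysosomal and cathepsin genes, 35 were tested. Of these, 5 rose and none fell, where 0.508% and 0.203% of all tested genes did. The median of the log2 fold changes was 0.35, where all tested genes with a symbol had 0.01. At an adjusted p under 0.05, 9 members were higher (1.41% of all tested genes), and at an unadjusted p under 0.05, 22 of 35 were (9.41% of all tested genes). The sign was positive for 31 of the 35. Within the 4 pigs with both regions, 26 to 32 of the 35 members were higher in the cerebellum, and the median difference within a pig ran from 0.15 to 0.51 on the log2 scale, whereas the median of all tested genes stayed at 0.00.

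CTSB encodes cathepsin B, a cysteine protease of the lysosome, and lies at chr14:15014139-15035081 of Sscrofa11.1. It measured 20.5 to 92.8 CPM (median 27.8) in cerebellar microglia and 2.97 to 14.5 CPM (median 7.17) in hippocampal microglia. Every cerebellar sample was above every hippocampal one, with the highest value in pig 12821. The log2 fold change was 2.23 ± 0.33 (SE, edgeR adjusted p = 0.00149, passing in 16 of 16), and frontal cortex microglia, at 4.99 to 19.2 CPM, overlapped the hippocampal range. Whole tissue had a mean of 98.2 CPM and alveolar macrophages 183 CPM, so CTSB counts were low in microglia of either region.

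SLC15A3, a lysosomal transporter of histidine and bacterial peptides, measured 47.9 to 93.3 CPM (median 58.3) in cerebellar and 29.8 to 46.0 CPM (median 36.5) in hippocampal microglia. The groups did not overlap, and the log2 fold change was 0.82 ± 0.14 (SE, edgeR adjusted p = 0.00501, 14 of 16). In RefSeq its span meets that of TMEM132A, which was also higher in the cerebellum (log2 fold change 1.17 ± 0.22 SE, edgeR adjusted p = 0.00583), and how reads were divided at their ends was not tested.

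SMPD1 and GAA, which were also called, encode enzymes whose loss causes lysosomal storage disease. SMPD1, acid sphingomyelinase, measured 12.6 to 32.7 CPM (median 18.1) against 7.04 to 13.3 CPM (median 9.79), with 1 cerebellar sample inside the hippocampal range and a log2 fold change of 0.99 ± 0.18 (SE, edgeR adjusted p = 0.00525, 10 of 16). GAA, acid alpha-glucosidase, measured 36.2 to 77.0 CPM (median 49.8) against 26.4 to 38.2 CPM (median 29.4), with ranges that overlapped slightly and a log2 fold change of 0.80 ± 0.15 (SE, edgeR adjusted p = 0.00568, 4 of 16).

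Another 4 members had an adjusted p under 0.05 but did not pass 0.01: LGMN (legumain, a cysteine protease that matures cathepsins, log2 fold change 1.28 ± 0.32 SE), LIPA (lysosomal acid lipase, 0.53 ± 0.11), CTSA (protective protein, 0.47 ± 0.10) and ASAH1 (acid ceramidase, 0.47 ± 0.12). LGMN had a log2 fold change of 1.81 and an edgeR adjusted p of 0.0026 with pig as a block, and was between 1.54 and 2.06 higher on the log2 scale in each of the 4 pigs with both regions. CTSD, the aspartic protease cathepsin D and the most abundant of these genes, measured 1253 to 3225 CPM against 826 to 1493 CPM, with a log2 fold change of 0.64 ± 0.19 (SE) that did not pass (edgeR adjusted p = 0.0759).

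Genes around the lysosome but outside that list were also among the calls, and were picked out after their values were seen. MITF, the MiT/TFE factor, lies at chr13:51177356-51422096 and measured 45.3 to 90.5 CPM (median 51.4) in cerebellar against 21.0 to 37.3 CPM (median 23.3) in hippocampal microglia. The groups did not overlap, the log2 fold change was 1.24 ± 0.17 (SE, edgeR adjusted p = 0.000505, 16 of 16), and frontal cortex microglia, at 13.3 to 31.6 CPM, overlapped the hippocampal range and lay below every cerebellar sample. TFEB, its relative, did not differ beyond the spread, at 37.7 to 53.8 CPM against 38.5 to 50.9 CPM (log2 fold change -0.02 ± 0.11 SE, edgeR adjusted p = 0.935). FNIP2, a partner of folliculin in the control of those factors at the lysosome, had a log2 fold change of 0.86 ± 0.15 (SE, edgeR adjusted p = 0.00428, 13 of 16).

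Sorting of enzymes to the lysosome depends on the mannose 6-phosphate tag, and 2 genes of that route changed in opposite directions. IGF2R, the large mannose 6-phosphate receptor, was higher in the cerebellum, at 114 to 180 CPM (median 145) against 80.9 to 108 CPM (median 97.8), with no overlap and a log2 fold change of 0.56 ± 0.11 (SE, edgeR adjusted p = 0.00568, 6 of 16). GNPTAB, the phosphotransferase subunit that begins the tag, at chr5:82264640-82460819, was lower, at 147 to 177 CPM (median 163) against 209 to 266 CPM (median 247). Its groups did not overlap, and its log2 fold change was -0.57 ± 0.07 (SE, edgeR adjusted p = 0.000351, 16 of 16). Frontal cortex microglia had 247 to 312 CPM of GNPTAB, above every cerebellar sample. SCPEP1, a serine carboxypeptidase, measured 145 to 289 CPM (median 204) against 79.7 to 158 CPM (median 123), with a log2 fold change of 0.75 ± 0.14 (SE, edgeR adjusted p = 0.00525, 7 of 16) and some overlap.

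**Figure D2:**
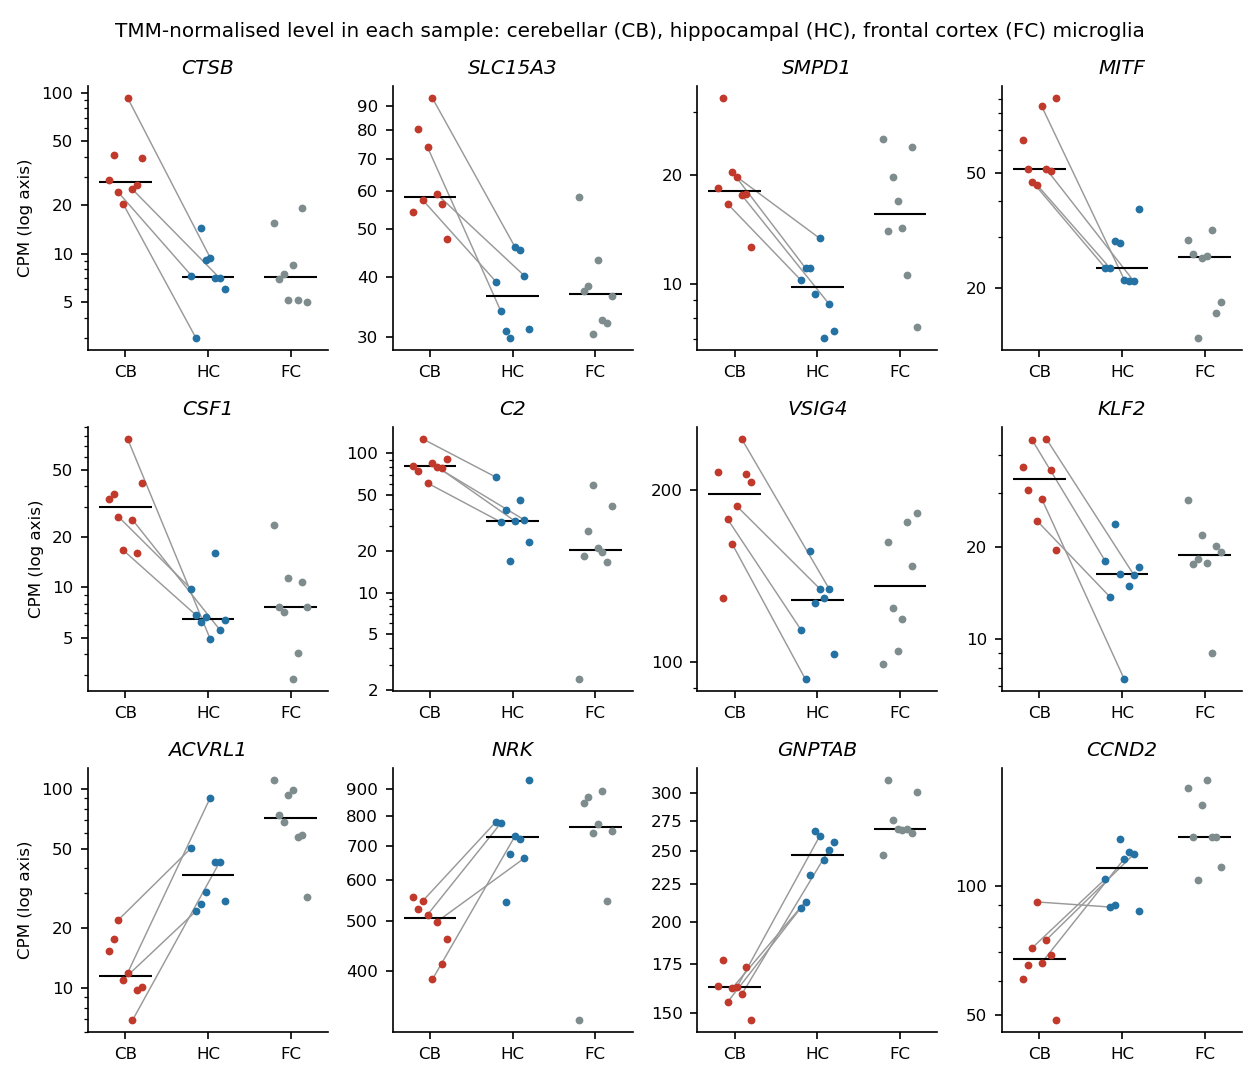
Each point is the TMM-normalised level of a gene in 1 sample, in CPM on a log axis whose range differs between panels, for cerebellar (CB), hippocampal (HC) and frontal cortex (FC) microglia with 8 samples each; black bars are medians and grey lines join the 4 pigs that gave both CB and HC. CTSB, SLC15A3, MITF and CSF1 separate the red from the blue points upward, ACVRL1 and GNPTAB separate them downward, and the others overlap.

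The E-box CACGTG, a palindrome and so searched on both strands at once, was looked for in the window from 250 bases before to 50 bases after the RefSeq gene start on Sscrofa11.1. It was present in 10 of the 35 tested members of the lysosome list (28.6%), in 10.6% of the tested genes with a symbol and a window, and in 7.93% of all protein coding genes. It was present in 1 of the 9 members higher at an adjusted p under 0.05 and in 3 of 36 genes higher in the cerebellum (8.33%). The windows of SCPEP1 and IGF2R, which each hold it 2 times, and that of CTSB, the member of the list with the largest change, which does not hold it, are shown with the E-box in capitals. They are given 5′ to 3′ on the strand of the gene, which is plus for SCPEP1 (chr12:33265259-33265558) and minus for IGF2R (chr1:7472431-7472730) and CTSB (chr14:15035032-15035331). A match is a string of letters and was not tested for binding.
SCPEP1: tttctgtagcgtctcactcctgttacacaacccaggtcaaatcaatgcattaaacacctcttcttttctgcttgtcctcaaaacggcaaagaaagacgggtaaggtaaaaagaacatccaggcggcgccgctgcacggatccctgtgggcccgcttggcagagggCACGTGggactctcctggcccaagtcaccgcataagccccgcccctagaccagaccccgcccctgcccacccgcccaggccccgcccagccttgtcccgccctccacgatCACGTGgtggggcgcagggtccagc
IGF2R: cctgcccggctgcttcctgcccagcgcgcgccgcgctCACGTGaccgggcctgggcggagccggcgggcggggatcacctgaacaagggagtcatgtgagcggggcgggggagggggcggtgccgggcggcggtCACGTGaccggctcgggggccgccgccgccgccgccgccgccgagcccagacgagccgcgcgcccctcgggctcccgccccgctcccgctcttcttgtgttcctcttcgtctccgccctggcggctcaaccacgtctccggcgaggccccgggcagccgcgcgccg
CTSB: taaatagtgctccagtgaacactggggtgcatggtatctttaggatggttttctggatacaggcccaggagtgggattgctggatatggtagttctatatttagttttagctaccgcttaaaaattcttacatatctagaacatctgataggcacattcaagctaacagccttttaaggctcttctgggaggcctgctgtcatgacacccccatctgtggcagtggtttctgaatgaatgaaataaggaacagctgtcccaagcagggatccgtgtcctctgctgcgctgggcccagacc

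CSF1, macrophage colony-stimulating factor, is a ligand of the receptor that keeps microglia alive. Of the 11 tested genes on the list of chemokines and cytokines it was the 1 called, where 0.508% of all tested genes rose. It lies at chr4:110178466-110198232 and measured 16.1 to 76.8 CPM (median 30.1) in cerebellar and 4.90 to 15.9 CPM (median 6.51) in hippocampal microglia. The lowest cerebellar and the highest hippocampal sample lay next to each other without overlap, and pig 12821 gave the highest cerebellar value. The log2 fold change was 2.13 ± 0.32 (SE, edgeR adjusted p = 0.0015, 16 of 16), with differences of 1.28 to 3.95 within the 4 pigs with both regions. CSF1 was at 2.82 to 23.5 CPM in frontal cortex microglia, which overlapped the cerebellar range. Its receptor CSF1R measured 1368 to 4469 CPM against 1975 to 2788 CPM and did not differ beyond the spread (log2 fold change 0.06 ± 0.17 SE, edgeR adjusted p = 0.898).

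Of 12 tested complement genes, 2 rose, where 0.508% of all tested genes did. The list as a whole moved little, with a median log2 fold change of 0.09 and 4 of the 12 negative. Within the pigs with both regions, 4 to 11 of the 12 were higher in the cerebellum. C2, the protease subunit of the classical pathway C3 convertase, measured 61.0 to 127 CPM (median 80.4) against 16.9 to 67.3 CPM (median 32.9), with only the hippocampal sample of pig 12750 reaching the cerebellar range. Its log2 fold change was 1.22 ± 0.22 (SE, edgeR adjusted p = 0.00525, 9 of 16), and the frontal cortex range of 2.38 to 59.6 CPM (median 20.2) lay below every cerebellar sample. VSIG4, a macrophage receptor for C3 fragments, measured 130 to 246 CPM (median 197) against 93.1 to 157 CPM (median 128), and its log2 fold change of 0.63 ± 0.12 (SE, edgeR adjusted p = 0.00829) passed in 3 of 16.

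The most abundant complement gene, C3, did not pass 0.01. It measured 3895 to 6335 CPM (median 4782) against 3005 to 4136 CPM (median 3304), with a log2 fold change of 0.52 ± 0.11 (SE, edgeR adjusted p = 0.0167), and was higher in the cerebellum of all 4 pigs with both regions. C1QA, C1QB and C1QC, the subunits of C1q, had log2 fold changes of -0.26, -0.27 and -0.27 with SEs of 0.15 to 0.16, and none passed (edgeR adjusted p from 0.374 to 0.383). CFI, the protease that inactivates C3b, had a log2 fold change of -0.90 ± 0.23 (SE, edgeR adjusted p = 0.0461).

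None of the 13 tested genes for MHC class II and antigen processing passed, where 0.711% of all tested genes did, and 5 were higher at an unadjusted p under 0.05 (9.41% of all tested genes). CD74, the invariant chain, measured 252 to 713 CPM against 174 to 649 CPM, with a log2 fold change of 0.29 ± 0.29 (SE), and CIITA, the class II transactivator, had one of 0.96 ± 0.33 (edgeR adjusted p = 0.128). Both were higher in the cerebellum of all 4 pigs with both regions. CD74 was higher by 0.62 on the log2 scale with pig as a block and lower by a log2 fold change of -0.05 in the pigs with 1 region only. CD48, a lymphocyte and myeloid surface ligand, was called, with a log2 fold change of 0.75 ± 0.14 (SE, edgeR adjusted p = 0.00525, 7 of 16).

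Immediate early genes respond within minutes to stimulation and to tissue dissociation. Of 19 tested, 2 rose (0.508% of all tested genes), none fell, 5 were higher at an adjusted p under 0.05 (1.41% of all tested genes), and the median log2 fold change was 0.38 with 16 of 19 positive. KLF2, a transcription factor that restrains inflammatory genes, measured 19.6 to 45.2 CPM (median 33.4) against 7.36 to 23.8 CPM (median 16.3), with overlapping ranges and a log2 fold change of 1.06 ± 0.20 (SE, edgeR adjusted p = 0.00654, 5 of 16). BTG1, an antiproliferative gene, measured 112 to 143 CPM (median 126) against 66.3 to 103 CPM (median 83.3) with no overlap, and its log2 fold change was 0.59 ± 0.10 (SE, edgeR adjusted p = 0.00295, 16 of 16).

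EGR1, KLF6 and DUSP1 did not pass 0.01, with log2 fold changes of 1.32 ± 0.29, 0.63 ± 0.14 and 0.83 ± 0.21 (SE) and edgeR adjusted p of 0.0206, 0.0216 and 0.0457. FOS had a log2 fold change of 1.14 and JUN of 0.78, at edgeR adjusted p of 0.0831 and 0.0588. Within the pigs with both regions, 16 or 17 of the 19 genes were higher in the cerebellum. The labels give no sort time or order of handling, and its part in these values was not tested.

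**Figure D3:**
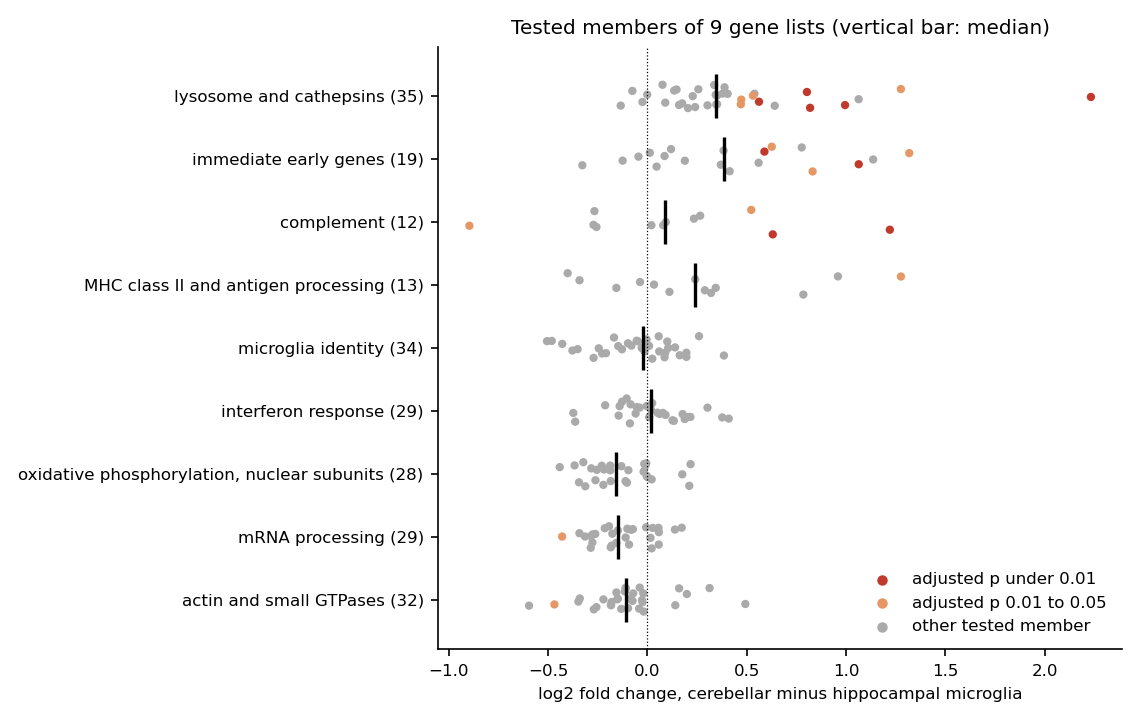
Each point is the log2 fold change of cerebellar minus hippocampal microglia of 1 tested member of 9 gene lists, with the number tested in parentheses, red for an edgeR adjusted p under 0.01 and orange for 0.01 to 0.05; the vertical bars are list medians. The medians of the lysosome list (0.35) and the immediate early list (0.38) lie to the right of zero, while the microglia identity list (-0.02) and the interferon list (0.02) are centred on it.

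Several of the largest fold changes, described here after their values were seen, were uneven among the cerebellar samples. FAT2, a giant cadherin of cerebellar granule cells, lies at chr16:71448491-71531664 and measured 32.9 to 540 CPM (median 96.6) in cerebellar and 4.34 to 10.1 CPM (median 5.57) in hippocampal microglia. Its log2 fold change was 4.85 ± 0.55 (SE, edgeR adjusted p = 0.000351, 16 of 16), and within the cerebellum it ranged widely, with its highest values in pigs 12902 and 12583 and its lowest in pig 12758. ATP2B2, a plasma membrane calcium pump with a mean of 285 CPM in whole hippocampal tissue, measured 11.6 to 95.5 CPM against 0.382 to 8.29 CPM (log2 fold change 3.80 ± 0.60 SE, edgeR adjusted p = 0.00414, 15 of 16). TIAM1, a RAC activator with means of 131 CPM in tissue and 45.7 CPM in alveolar macrophages, measured 20.2 to 181 CPM against 2.03 to 13.5 CPM (2.99 ± 0.51 SE, edgeR adjusted p = 0.00525, 11 of 16).

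COL27A1, a fibrillar collagen, measured 12.8 to 160 CPM against 1.66 to 9.64 CPM, with a log2 fold change of 3.39 ± 0.58 (SE, edgeR adjusted p = 0.00553) that passed in 5 of 16. FAT2, ATP2B2, TIAM1 and COL27A1 each had their 2 highest cerebellar values in pigs 12902 and 12583. Cerebellar and hippocampal samples did not overlap for any of them. Frontal cortex microglia had 2.94 to 82.2 CPM of FAT2, 2.31 to 121.5 CPM of ATP2B2 and 2.86 to 61.8 CPM of COL27A1. Each of those ranges overlapped the cerebellar one. ASTN2, an astrotactin of migrating neurons, was less uneven, at 41.4 to 119 CPM (median 65.4) against 5.14 to 18.3 CPM (median 12.9), and had its highest value in pig 12821. Its log2 fold change of 2.55 ± 0.25 (SE) had the lowest edgeR adjusted p of all tested genes (2.38e-05, 16 of 16). In frontal cortex microglia ASTN2 was at 3.91 to 45.3 CPM, which overlapped the cerebellar range.

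A list of 14 cerebellar granule neuron genes moved with these calls. Without FAT2 its 13 genes summed to 120 to 529 CPM in cerebellar and 47.2 to 97.8 CPM in hippocampal microglia with no overlap, and to 370 to 478 CPM in whole hippocampal tissue. Frontal cortex microglia had 45.2 to 159 CPM, and those of pigs 12891 and 12599 lay inside the cerebellar range. Among the cerebellar samples the sum was 529 CPM in pig 12902, 355 CPM in pig 12583 and 224 CPM in pig 12750, and 120 to 175 CPM in the others. Some members, picked after their values were seen, were nearly silent in the hippocampal samples. NEUROD1 measured 1.05 to 25.7 CPM against 0 to 0.301 CPM and ZIC1 1.03 to 23.2 CPM against 0 to 0.0754 CPM. CBLN1 measured 2.87 to 55.0 CPM against 0 to 1.04 CPM and GABRA6 0 to 18.4 CPM against 0 to 0.277 CPM. In whole hippocampal tissue NEUROD1 was at 16.1 to 25.2 CPM. The hippocampal sum of the list came mainly from its other members. Only 2 of the 14 passed the filter on low levels. FAT2 was called, and the other, with a log2 fold change of 0.33, was not.

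General neuron, oligodendrocyte and astrocyte lists overlapped between the groups, summing to 137 to 532 CPM, 172 to 1050 CPM and 252 to 529 CPM in cerebellar microglia and to 57.2 to 200 CPM, 163 to 553 CPM and 206 to 469 CPM in hippocampal microglia. In tissue the same lists summed to at least 7580 CPM. The general neuron and astrocyte sums were higher in the cerebellum of all 4 pigs with both regions. Red blood cell genes (6 listed) were also higher in all 4, at 6.31 to 111 CPM against 3.84 to 12.7 CPM, as were the ependymal and choroid plexus list (median 8.86 CPM against 0.152 CPM) and the endothelial list (14.5 to 53.0 CPM against 9.85 to 45.3 CPM), and the part of these lists in the results was not tested. Purkinje neuron genes were at 128 to 186 CPM in cerebellar and 167 to 225 CPM in hippocampal microglia. Of the 40 genes higher in the cerebellum, 7 were tissue genes as defined above against frontal cortex microglia (1.93% of the tested genes are), namely CTSB, CLSTN1, FMNL2, PYGB, TIAM1, ATP2B2 and ENSSSCG00000004081, and none of the 16 lower genes was. Against hippocampal microglia some further called genes had tissue means over 4 times higher, such as COL27A1 (90.2 CPM in tissue against 5.99 CPM) and, among the lower genes, SUB1 (211 CPM against 37.5 CPM). The reference tissue is hippocampus, so genes of cerebellar cells such as FAT2 escape that measure.

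Without the cerebellar samples of pigs 12902 and 12583, 15 genes were higher in the cerebellum and 3 in the hippocampus, and 13 of the 40 genes were still called, with all 40 of the same sign. CTSB (edgeR adjusted p = 0.00649), CSF1 (0.00962), MITF (0.00332), SLC15A3 (0.00454), SMPD1 (0.00649) and FAT2 (1.93e-05) passed without them, and C2 (0.0216), VSIG4 (0.0361), KLF2 (0.0121), BTG1 (0.0126) and GAA (0.0177) did not. The median of the lysosome list was 0.34 without them and 0.33 with the share of tissue genes as a covariate. With that covariate 24 genes were higher in the cerebellum and 5 in the hippocampus. The remaining cerebellar samples still summed to 120 to 224 CPM of the granule neuron list without FAT2, above every hippocampal sample. The covariate rests on hippocampal tissue. Neither setting therefore separates granule neuron RNA from region, and its part in the individual calls and in the lysosome list was not tested.

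**Figure D4:**
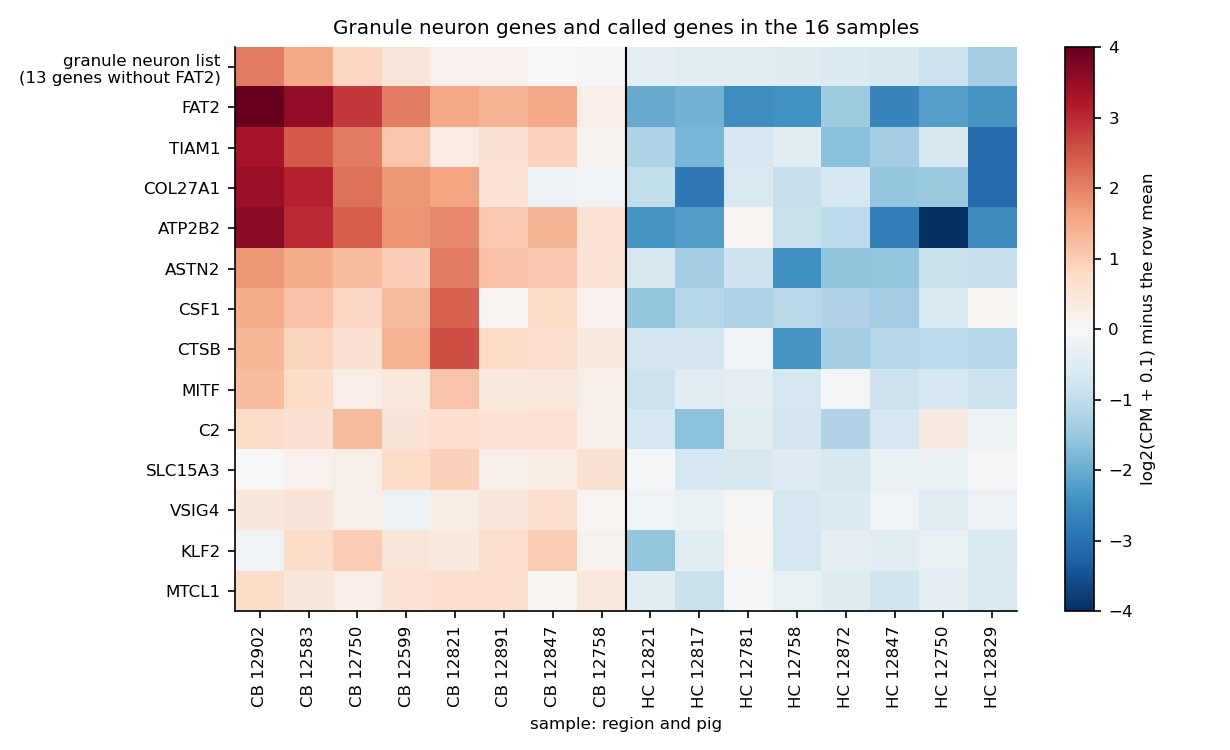
Rows are the summed granule neuron list without FAT2 and 13 called genes, and columns are the 8 cerebellar (CB) and 8 hippocampal (HC) samples by pig, each ordered by the list; colour is log2(CPM + 0.1) minus the row mean. FAT2, TIAM1, COL27A1 and ATP2B2 have their 2 highest values in pigs 12902 and 12583 like the list, while SLC15A3 has its lowest there.

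The other genes higher in cerebellar microglia had varied functions. MTCL1, a microtubule crosslinker, measured 127 to 202 CPM (median 172) against 65.7 to 116 CPM (median 88.1) with no overlap, and was lower still in frontal cortex microglia, at 29.6 to 73.2 CPM (log2 fold change 0.97 ± 0.12 SE, edgeR adjusted p = 0.000351). MMP15, a membrane-bound metalloproteinase, measured 24.2 to 39.3 CPM against 7.65 to 19.8 CPM (1.20 ± 0.18 SE, edgeR adjusted p = 0.00149). ITGA6, a laminin-binding integrin subunit, measured 28.1 to 117 CPM against 10.3 to 40.1 CPM with overlap (1.67 ± 0.30 SE, edgeR adjusted p = 0.00583, 3 of 16).

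Further calls were B3GNT3, a glycosyltransferase (log2 fold change 1.05), PYGB, glycogen phosphorylase of brain (1.21), GGT7, of the gamma-glutamyltransferase family (0.91), ABCA3, a lipid transporter (0.94), and FMNL2 and FMN2, formins that build actin filaments (0.85 and 0.68). ARFIP2 (0.77), PIK3IP1, an inhibitor of PI3 kinase (0.70), CDC25B, a cell cycle phosphatase (0.62), CLSTN1, a calsyntenin (0.61), IGSF8 (0.58), CHKA, choline kinase (0.57), and WDFY3, an adaptor of selective autophagy (0.39), were also called. Of the 3 called genes without a symbol, ENSSSCG00000004081 had a log2 fold change of 4.84 and ENSSSCG00000038594 one of 1.49. ENSSSCG00000004081 had its 2 highest cerebellar values in pigs 12902 and 12583, and means of 383 CPM in tissue and 223 CPM in alveolar macrophages. Mean frontal cortex levels lay between the regions and nearer the hippocampus for 17 of the 40 genes, between and nearer the cerebellum for 12, and on the far side of the hippocampus for 11.

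Among genes higher in hippocampal microglia, the largest change was in ACVRL1, a receptor for ligands of the TGF-beta family that is best known from endothelium, at chr5:17267483-17284155. It measured 24.5 to 91.0 CPM (median 36.9) in hippocampal and 6.89 to 22.0 CPM (median 11.5) in cerebellar microglia without overlap. The log2 fold change was -1.68 ± 0.28 (SE, edgeR adjusted p = 0.00414, 16 of 16), with differences of -1.15 to -2.92 within the 4 pigs with both regions. Frontal cortex microglia had 28.9 to 111 CPM (median 71.5), above every cerebellar sample. The endothelial list summed to 14.5 to 53.0 CPM in cerebellar and 9.85 to 45.3 CPM in hippocampal microglia, so those markers were low and overlapped.

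NRK, a serine/threonine kinase on chrX that is abundant in these cells, measured 544 to 939 CPM (median 726) against 385 to 556 CPM (median 507), with 1 hippocampal sample inside the cerebellar range. Its log2 fold change was -0.58 ± 0.10 (SE, edgeR adjusted p = 0.00525, 10 of 16), and its mean was 0.566 CPM in alveolar macrophages. CCND2, cyclin D2, measured 87.4 to 128 CPM (median 110) against 48.7 to 91.6 CPM (median 67.6), and was not lower in the cerebellum of pig 12758 (log2 fold change -0.64 ± 0.12 SE, edgeR adjusted p = 0.00558, 8 of 16). BASP1, a membrane-bound signal protein, measured 492 to 837 CPM (median 646) against 354 to 523 CPM (median 425), with a log2 fold change of -0.55 ± 0.10 (SE, edgeR adjusted p = 0.00654, 4 of 16).

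Regulators of small GTPases were among the remaining calls, a grouping made after the values were seen. It is not of 1 direction over all calls, as TIAM1, a RAC activator, was higher in the cerebellum (log2 fold change 2.99). RALB, a RAS-like GTPase, had a log2 fold change of -0.49, RASAL2, a RAS GTPase activator, of -0.51, and CYRIA, which binds RAC1, of -0.51, each with no overlap between groups. On the list of actin and small GTPase genes none of 32 passed (0.711% of all tested genes did), 27 of 32 were negative, and the median was -0.11. Within the 4 pigs with both regions, however, 9 to 17 of the 32 were higher in the cerebellum. SUB1, a transcription coactivator (-0.73), CCDC8 (-0.75) and IFN-OMEGA-6, of a multigene interferon family whose members may share reads (-0.86), completed the calls with a protein symbol. For 10 of the 16 genes the frontal cortex mean lay on the far side of the hippocampal one.

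SNORD45A, a small nucleolar RNA (snoRNA) of the box C/D class that guides methylation of ribosomal RNA, measured 20.2 to 88.7 CPM (median 38.5) in hippocampal and 14.1 to 25.6 CPM (median 18.7) in cerebellar microglia, with overlap. Its log2 fold change was -1.33 ± 0.24 (SE, edgeR adjusted p = 0.00525, 8 of 16). Seen after that, all 44 tested snoRNA genes had a negative log2 fold change, with a median of -0.56. Of these, 1 was called (0.203% of all tested genes were called lower). At an adjusted p under 0.05, 7 were lower (1.12% of all tested genes), among them SNORD8 at -1.52.

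The direction did not hold within pigs. In pigs 12750 and 12758 the median snoRNA was higher in the cerebellum, by 0.47 and 0.77 on the log2 scale, with 43 and 41 of the 44 genes higher there. In pigs 12821 and 12847 it was lower, at -1.25 and -0.45, with 1 and 5 of the 44 higher. Summed over the 44 genes the level was 3460 to 8830 CPM in cerebellar and 4650 to 14600 CPM in hippocampal microglia, with the highest hippocampal values in pigs 12817 and 12821 and the lowest in pigs 12758 and 12750. With pig as a block the median was -0.12.

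**Figure D5:**
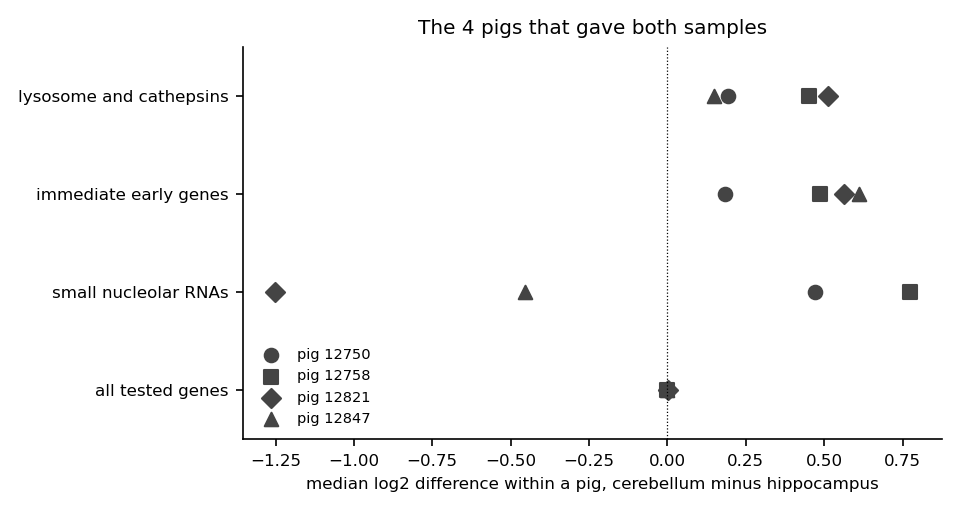
Points are the median log2 difference, cerebellum minus hippocampus, over the tested members of a list within each of the 4 pigs that gave both samples. The lysosome list (0.15 to 0.51) and the immediate early list (0.18 to 0.61) are positive in all 4 pigs, the snoRNA genes split between -1.25 and 0.77, and the median of all tested genes is 0.00.

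None of 34 tested microglia identity genes passed, where 0.711% of all tested genes did, so the count is near the background. At an unadjusted p under 0.05, 6 were lower (8.69% of all tested genes) and 1 was higher (9.41%), and the median was -0.02 with 14 positive and 20 negative. TMEM119 measured 305 to 549 CPM against 322 to 549 CPM, with a log2 fold change of -0.004 ± 0.12 (SE), CX3CR1 539 to 1004 CPM against 568 to 875 CPM (-0.01 ± 0.12 SE), and SALL1 277 to 471 CPM against 327 to 504 CPM (-0.13 ± 0.12 SE). GPR34 (-0.01 ± 0.09 SE), OLFML3 (-0.27), AIF1 (-0.38) and TREM2 (0.39) did not pass either. P2RY12, the purinergic receptor that guides microglial processes, measured 330 to 472 CPM (median 430) against 404 to 637 CPM (median 594), with a log2 fold change of -0.43 ± 0.11 (SE, edgeR adjusted p = 0.0504), and was lower in the cerebellum of all 4 pigs with both regions.

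Interferon response genes (29 tested), MHC class I genes (12), pattern recognition receptors (19), Fc receptors (3), lipid handling genes (12), glycolysis genes (24), nuclear subunits of oxidative phosphorylation (28), iron genes (13), chaperones (20), mitochondrially encoded genes (13), cell cycle genes (7) and survival genes (15) held no call, with 0.711% called over all tested genes, and had medians between -0.16 and 0.11. Of the oxidative phosphorylation genes 24 of 28 were negative. Within the pigs with both regions, however, 5 to 17 of the 28 were higher in the cerebellum. The interferon list had a median difference of -0.68 on the log2 scale within pig 12758, with 2 of 29 genes higher in the cerebellum. In the other pigs with both regions that median was -0.0015 to 0.0914. On the lipid list 2 of 12 were higher at an adjusted p under 0.05 (1.41% of all tested genes), which were SPP1, the secreted protein osteopontin, and SOAT1, which esterifies cholesterol. SPP1 measured 59.3 to 306 CPM (median 83.0) against 19.3 to 58.8 CPM (median 36.0) without overlap (log2 fold change 1.62 ± 0.33 SE, edgeR adjusted p = 0.0166). Of 29 mRNA processing genes none passed and 11 were lower at an unadjusted p under 0.05 (8.69% of all tested genes), with a median of -0.15. SYF2, a splicing factor, was the lowest, at a log2 fold change of -0.43 ± 0.11 (SE, edgeR adjusted p = 0.042). Of the 29 mRNA processing genes, 6 to 18 were higher in the cerebellum within the pigs with both regions.

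A list of 34 genes that the study's text names for its regions holds 30 tested genes. Of these, 4 rose (BTG1, CSF1, CTSB and SLC15A3) and none fell, where 0.508% and 0.203% of all tested genes did. At an adjusted p under 0.05, 8 were higher (1.41% of all tested genes) and 5 were lower (1.12%). As the study chose them on these samples, the count is not independent evidence of their direction. Many were named as members of co-expression clusters over microglia of all regions, not as differing between cerebellum and hippocampus. The study tested each pair of regions with limma-voom, and also counted C3 transcripts in situ, in cerebellum against cortex. Passing or not passing here is therefore a measure unlike those of the study. The 5 lower genes were SNX3 (-0.52), PDCD4 (-0.49), ARPC5 (-0.47), SYF2 and PTMA (-0.41), and the other higher ones were DMP1 (0.90), HSPB1 (0.62), C3 and LGMN. ARPC5L (-0.35), CAPZA1 (-0.34), RAP1B (-0.18), RHOA (-0.15), RIOK3 (-0.20), CIR1 (-0.34), CDC40 (-0.31), CPSF3 (-0.18), HNRNPK (-0.19), HNRNPM (-0.28), MFAP1 (-0.28), NUDT21 (-0.21), SF3A3 (-0.28), BCL6 (0.31) and NAPSA (0.54) did not pass, and SLAMF8, at 3.18 to 21.0 CPM against 0.869 to 7.35 CPM, was below the filter.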

How the data were processed

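RNA from FACS-sorted cells was made into stranded total RNA libraries (Takara SMARTer). The authors trimmed reads with BBtools, aligned them with HISAT2 to Sscrofa11.1 and summarised them per gene with StringTie, and deposited raw counts per gene for each sample. The versions of HISAT2 and StringTie are not given in the sources used here. Counts were scaled by TMM and tested with edgeR 4.0.16 (robust quasi-likelihood test, no pig term) on genes that exceeded 10 CPM in each sample of 1 or both groups, with Benjamini-Hochberg adjustment over all 7875 tested genes and a threshold of 0.01. The SE is the log2 fold change divided by the square root of the F statistic. Depth was 18438494 to 36503520 counts, and 3 counts set the floor, which covers counting error only. Same-tag samples are the same pig. Deviations from group means correlated at 0.0860 to 0.360 within the 4 pigs and averaged -0.0161 over 60 pairs of different pigs. On simulated data for this comparison (7875 genes), 38 of 100 genes changed 1.5-fold and 89 of 100 changed 2-fold were called, and no unchanged gene was. The simulated counts were drawn independently from the means and fitted dispersions of these data, with no pig effect and no uneven samples. They therefore do not measure false calls in the real samples. Symbols, positions and promoter windows came from RefSeq. Alternatives used limma 3.58.1, DESeq2 1.42.0, other filters, factors and samples.

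Named genes were the 12 largest called changes in each direction, the 5 largest differences in mean CPM, up to 4 called members of each list, the genes of the study's regional text and microglia markers. Other called genes were added after their values were seen, as were the snoRNA list and TFEB, FNIP2 and the uncalled lysosomal, complement, immediate early and granule neuron genes. The gene lists and named groups were chosen with earlier results of these data known. Some members of the lists are counted but not reported by name here.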

Additional observations from a re-analysis of the deposited data

Results flagged for a closer look

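Among 106 groups of 8 samples examined for called genes, 4 held a sample far from the others by Dixon's test at the 95% level, where chance gives about 1 in 20. CTSB in the cerebellar microglia of pig 12821 was at 92.8 CPM, with a gap of 0.542 of the group's range on the log2 scale. ABCA3 in the hippocampal microglia of pig 12817 was at 12.95 CPM (gap 0.657), KLF2 in the hippocampal microglia of pig 12821 at 7.36 CPM (gap 0.528) and SCPEP1 in the hippocampal microglia of pig 12758 at 79.7 CPM (gap 0.539).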

How the results depend on the processing

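Against 40 genes higher in cerebellar and 16 higher in hippocampal microglia, DESeq2 called 108 and 79, an adjusted p under 0.05 called 111 and 88, and an added fold change over 2 left 18 and 4. Fitting all 24 microglia samples gave 22 and 8. The replicate block with pig as a fixed effect gave 2 and 1, as did the 4 pigs with both regions alone, the block with pig as a random effect in limma-voom gave 71 and 34, and the pigs with 1 region gave 1 and 3. The share of tissue genes as a covariate gave 24 and 5. Leaving out 1 sample at a time gave 16 to 40 and 2 to 22. In settings chosen after seeing the data, the counts were 22 and 7 without the cerebellar samples of pigs 12599 and 12902, and 15 and 3 without those of pigs 12583 and 12902. The last 2 settings and the fits on part of the pigs hold fewer samples, and otherwise the cause was not tested. Other filters, factors and limma-voom without a block stayed within 1.5 times of both counts, with no factors giving 27 and 17. The genes changed more than the counts: of the 40, 18 were called with no filter, 23 with filterByExpr and 25 with the filter over all 5 groups, and of the 16, 12, 11 and 14.

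None of the 1749 values of the 53 called genes examined reversed. The settings reuse samples on which these genes were called, so that is not independent evidence of their direction. All reversals were in uncalled genes. TFEB was at 0.16 in the pigs with 1 region, 0.034 with the tissue covariate, 0.0030 without pigs 12583 and 12902, and -0.0735 to 0.0061 with 1 sample left out. CSF1R was at -0.016 in limma-voom, -0.042 with sample weights, -0.016 under the fixed replicate block and in the pigs with both regions, -0.017 under the random one, -0.0069 without pigs 12599 and 12902, and -0.10 to 0.15 with 1 sample left out. GPR34 was at 0.031 in the pigs with 1 region and -0.0522 to 0.0088 with 1 sample left out. CX3CR1 was at 0.0043 with sample weights, 0.079 in the pigs with 1 region and -0.0834 to 0.0417 with 1 sample left out. TMEM119 was at 0.0023 with sample weights, 0.0003 in the pigs with 1 region, 0.16 with the tissue covariate, 0.018 without pigs 12599 and 12902, 0.094 without pigs 12583 and 12902, and -0.0612 to 0.0601 with 1 sample left out. CD74 was at -0.048 in the pigs with 1 region.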
